A study of Mus musculus with 64 samples.

Results

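Ube3a encodes the ubiquitin ligase whose maternal copy is lost in Angelman syndrome. It was followed here with 8 genes that lie along the same stretch of mouse chromosome 7, namely Snhg14, Snrpn, Ndn, Magel2, Atp10a, Gabra5, Gabrg3 and Herc2. The 9 genes were chosen by name, and each was matched by its Ensembl gene ID to 1 row in each count table, out of 55414 rows for the acute and 55573 for the continuous cohort. Libraries came from male WT mice and from AS mice with the genotype Ube3a m-/p+, both F1 hybrids of a C57BL/6J father and a 129sv mother, at an age of 10 to 18 weeks. AS mice inherited from the mother the Ube3atm1Alb allele, which lacks exon 5 and is out of frame. In the acute cohort the hippocampus of 24 mice was taken 3 h after a subcutaneous injection of vehicle or of 3 mg/kg corticosterone (CORT), with 6 mice in each group. In the continuous cohort the hippocampus and the liver of the same 20 mice were taken on day 6 after a pellet with vehicle or 20 mg CORT was implanted, for an exposure of 5 days, with 5 mice in each group. The mutation is present in every cell of AS mice, and both alleles are counted together in these libraries.

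In neurons Ube3a is transcribed from the maternal copy, and the paternal copy is silenced in cis by the long antisense transcript Snhg14. Most other cells, hepatocytes among them, use both copies. Snhg14, Snrpn, Ndn and Magel2 are transcribed from the paternal chromosome, imprinting of Atp10a has been described as variable, and Gabra5, Gabrg3 and Herc2 are generally regarded as expressed from both chromosomes.

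On GRCm38 with the GENCODE annotation, Herc2 spans chr7:56050196-56231800 on the plus strand, Gabrg3 chr7:56716465-57387188 and Gabra5 chr7:57407672-57510059 on the minus strand, and Atp10a chr7:58656166-58829420 on the plus strand. Ube3a follows at chr7:59228750-59311536 on the plus strand. Snhg14 lies opposite its 3′ end at chr7:59307924-59975759 on the minus strand, and 27.3% of the exon bases of Ube3a lie within an exon of a gene on the other strand. Snrpn spans chr7:59982495-60140219 on the minus strand, and Ndn at chr7:62346569-62350262 and Magel2 at chr7:62377010-62381640 lie on the plus strand. Without strand, reads on genes that lie wholly inside opposite-strand exons would be ambiguous and left uncounted. Counts on such genes therefore show that counting separated the strands. Of 366 such genes, 222 had any count in the acute cohort and 29 had 100 or more over all 24 libraries. In Snrpn, 27.3% of the exon bases are shared with a gene on the same strand, and the overlapping gene Snurf had 0 counts in all libraries of both tables.

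**Figure D1:**
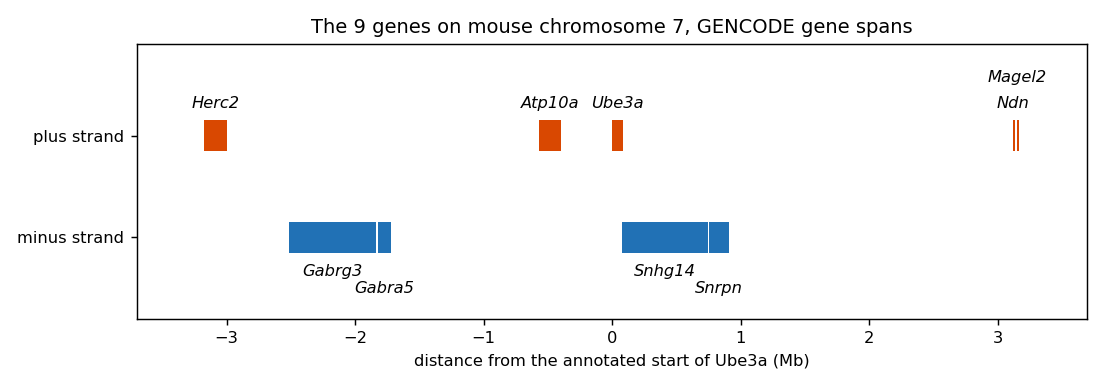
Gene spans of the 9 genes, by distance in Mb from the annotated start of Ube3a, with plus-strand genes in the upper row and minus-strand genes in the lower row. Snhg14 and Snrpn lie next to Ube3a on the opposite strand, and Ndn and Magel2 lie at the far end from Herc2.

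The windows of 250 bases before the RefSeq transcript starts on GRCm38.p6 are shown for 3 genes on which the comparisons turn, in order to show how they differ in CpG dinucleotides, the sites at which imprinted regions are methylated. CpG is in capitals, and each sequence is given on the strand of its gene. The Ube3a window (chr7:59228500-59228749, plus) holds 24 CpG, the Atp10a window (chr7:58657952-58658201, plus) 14, and the window shared by the outermost RefSeq starts of Snhg14 and Snrpn (chr7:60450178-60450427, minus) 2. The median over all 32851 RefSeq windows of this length is 6. Of the 3 windows only that of Ube3a ends at the GENCODE start given above. The Atp10a window lies inside the GENCODE span, and the window of Snhg14 and Snrpn lies far upstream of both GENCODE spans, so neither is the start of the gene as placed above.
Ube3a: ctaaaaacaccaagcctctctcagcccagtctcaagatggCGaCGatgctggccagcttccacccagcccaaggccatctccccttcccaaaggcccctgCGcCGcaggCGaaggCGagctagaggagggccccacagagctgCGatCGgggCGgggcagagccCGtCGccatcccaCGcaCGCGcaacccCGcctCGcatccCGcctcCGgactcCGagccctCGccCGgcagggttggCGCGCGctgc
Atp10a: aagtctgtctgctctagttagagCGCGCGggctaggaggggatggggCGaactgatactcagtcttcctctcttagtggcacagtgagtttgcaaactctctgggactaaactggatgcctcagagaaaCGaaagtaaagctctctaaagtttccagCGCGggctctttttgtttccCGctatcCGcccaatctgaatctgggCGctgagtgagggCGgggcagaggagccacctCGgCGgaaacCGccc
Snhg14: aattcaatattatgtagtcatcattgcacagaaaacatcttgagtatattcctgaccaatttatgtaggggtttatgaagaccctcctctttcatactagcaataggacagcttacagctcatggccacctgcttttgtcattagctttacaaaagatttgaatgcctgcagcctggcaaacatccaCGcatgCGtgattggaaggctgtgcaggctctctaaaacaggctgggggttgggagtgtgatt
RefSeq gave 13 such windows for the 9 genes, counting the shared one for both genes. None of the 13 held AGAACA, the core hexamer of the glucocorticoid response element, on either strand, and 16.1% of all windows did. The absence refers to these letters in these windows alone.

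Each library held 19049461 to 21052967 counts on genes in the acute hippocampus. The range was 19112929 to 21783009 for hippocampi of the continuous cohort and 18612550 to 20868924 for livers. Values are CPM, the counts of a gene scaled to a common library size, with TMM factors within each of these 3 sets, and genes were compared with the quasi-likelihood test of edgeR, with Benjamini-Hochberg adjustment over all genes tested and a threshold of 0.05 on adjusted p. In the acute cohort the libraries divided into 2 ranges by the reads not counted because their alignment quality was low. A lower range of 1877 to 2237 reads held all 12 WT mice and 4 AS vehicle mice, and the upper range of 2640 to 2850 reads held the AS vehicle mice 17 and 18 and all 6 AS CORT mice. Among CORT-treated mice of this cohort, genotype and range cannot be told apart. A covariate for range, used below, is fitted from the AS vehicle mice alone. It widens the standard errors of comparisons with AS mice, so a call can be lost through lower power. From the continuous hippocampal set, AS vehicle mouse 9 and WT vehicle mouse 13 were left out, as the study did, and their values are given apart from the others. The 2 tables list different sets of genes, with 52225 gene IDs in both, so levels were compared only within a table.

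In the hippocampus all 9 genes were detected, and they covered a wide range of levels. On the scale of CPM per kilobase of exon, the mean level over the 24 acute libraries was 87.1 ± 7.35 (SD) for Gabra5, which encodes a GABA-A receptor subunit enriched in hippocampal pyramidal cells. Snrpn, for a protein of the spliceosome, was at 59.3 ± 4.61, Ndn, for the MAGE family protein necdin, at 27.0 ± 3.07, and Herc2, for a very large ubiquitin ligase, at 17.5 ± 1.58. The ranges of these 4 genes did not overlap each other. Ube3a was at 3.53 ± 0.388 CPM per kilobase, Atp10a, for a phospholipid-transporting ATPase, at 2.59 ± 0.865, Gabrg3, for another GABA-A receptor subunit, at 1.63 ± 0.265, and Snhg14 at 1.45 ± 0.267, and each of these overlapped its neighbour in the order. Magel2, for a MAGE family protein that assists ubiquitin ligases, was lowest at 0.235 ± 0.105.

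In the 18 continuous hippocampal libraries, Snrpn was at 121 ± 10.4 CPM per kilobase, Gabra5 at 74.5 ± 6.09, Ndn at 28.5 ± 2.28, Herc2 at 16.8 ± 1.58 and Ube3a at 3.98 ± 0.434, with no overlap between neighbours. Atp10a at 1.82 ± 0.561 overlapped Gabrg3 at 1.55 ± 0.174, which lay above all values of Snhg14 at 0.925 ± 0.108. In the liver the 3 genes that passed the filter on low counts were Herc2 at 3.23 ± 0.442 CPM per kilobase, Ube3a at 2.001 ± 0.405 and Snrpn at 1.74 ± 0.354 over 20 libraries, and each overlapped its neighbour. The other 6 genes were at 0.148 CPM per kilobase or below, and they did not pass this filter, which asked for more than 20 normalized counts in at least 3 mice of a group.

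Few of the 9 genes differed between AS and WT mice. In the acute hippocampus 0 of the 9 passed the test with vehicle (0.157% of all genes tested did) and 0 with CORT (24.9% of all genes). With the treatments averaged 2 passed, Snhg14 higher and Gabra5 lower, beside 14.2% of all genes, so the number alone says little of these genes. After 5 days of treatment 0 of the 9 passed in the hippocampus with vehicle (0.0134% of all genes), with CORT (0.0401%) or with the treatments averaged (0.348%). In the liver 1 of the 3 genes tested passed each time, and it was Ube3a, beside 0.0163% of all genes with vehicle, 0.277% with CORT and 0.326% with the treatments averaged.

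CORT altered 1 of the 9 genes in the acute hippocampus, Atp10a, which rose in WT mice (1.48% of all genes altered), in AS mice (17.9%) and with the genotypes averaged (7.02%). After 5 days of CORT it was again Atp10a in the hippocampus, which passed in AS mice (3.77% of all genes) and with the genotypes averaged (9.67%), and 0 of the 9 passed in WT mice (2.92%). In the liver Snrpn rose in WT mice (18.6% of all genes altered) and with the genotypes averaged (37.1%), and 0 of 3 genes passed in AS mice (27.5%). The interaction, a test of whether the CORT effect differed between the genotypes (AS minus WT), passed for 0 of the 9 genes in the acute hippocampus (4.49% of all genes), for 0 of 9 in the continuous hippocampus (0%) and for 0 of 3 in the liver (0%). By edgeR, unadjusted p was under 0.05 for 561 of all genes in the continuous hippocampal interaction and for 995 in the hepatic one, in which the Wald test of DESeq2 passed 0 and 9 genes.

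**Figure D2:**
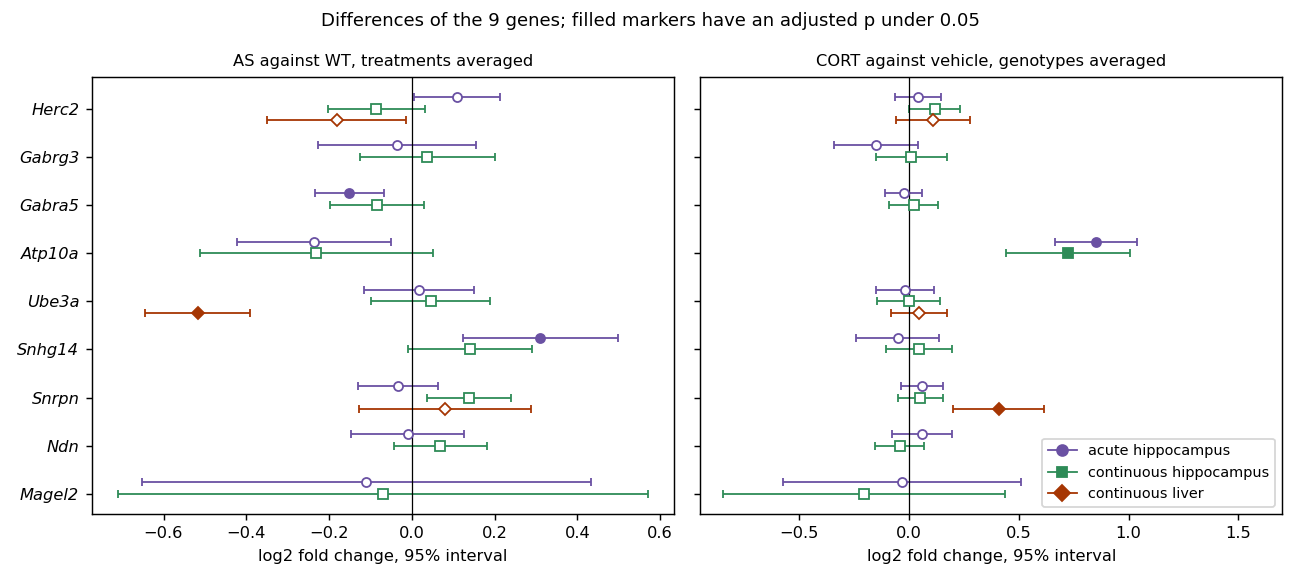
Log2 fold changes with 95% intervals of the 9 genes for AS against WT mice (left) and CORT against vehicle (right), with circles for the acute hippocampus, squares for the continuous hippocampus and diamonds for the liver, filled where adjusted p was under 0.05. The left panel has filled markers for Ube3a in liver at -0.52 and for Snhg14 and Gabra5 in the acute hippocampus, and the right panel for Atp10a in both hippocampal sets and Snrpn in liver.

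Ube3a mRNA was lower by 30.1% in the liver of AS mice, and its genotype difference passed no test in the hippocampus. The counts cover the whole gene, so they do not show by themselves the loss of exon 5 in the mutant transcript, and they do not check the genotype labels. In bulk tissue, fewer cells of a type and less RNA per cell cannot be told apart. In the liver the WT vehicle mice had 51.9, 47.6, 41.8, 54.4 and 46.0 CPM, a mean of 48.4 ± 4.96 (SD, n = 5). The AS vehicle mice had 31.7, 28.5, 38.6, 30.6 and 35.6 CPM, a mean of 33.01 ± 4.05 (n = 5). Every AS vehicle mouse lay below every WT vehicle mouse.

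With CORT, Ube3a in liver was at 49.0, 45.2, 53.5, 44.4 and 52.0 CPM in WT mice, a mean of 48.8 ± 4.01 (n = 5). In AS mice with CORT it was at 34.04, 34.6, 37.5, 32.4 and 35.9 CPM, a mean of 34.9 ± 1.93 (n = 5). The genotypes were again fully apart, with 851 to 1078 Ube3a counts in the 10 WT livers and 568 to 785 in the 10 AS livers. The log2 fold change of AS against WT was -0.55 ± 0.09 (SE, adjusted p = 0.0191) with vehicle, -0.48 ± 0.09 (adjusted p = 0.0133) with CORT and -0.52 ± 0.06 (adjusted p = 2.2e-04) with the treatments averaged. Leaving out each mouse in turn kept the averaged difference in all 20 fits, with adjusted p from 1.79e-04 to 7.64e-04. The vehicle difference passed in 16 of 20 fits and reached an adjusted p of 0.113 without AS vehicle mouse 14, and the CORT difference passed in 17 of 20 fits, up to 0.0548 without AS CORT mouse 16. None of the 5 hepatocyte, 5 Kupffer cell and 3 bile duct markers tested passed between the genotypes with the treatments averaged. Of 5 blood markers 0 passed averaged and 1 was lower in AS mice with CORT, with median log2 differences of -0.59 and -0.70, and their part in the level of Ube3a was not tested.

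The hippocampal levels of Ube3a were close in both genotypes. In the acute cohort the lowest, median and highest of the 6 mice were 63.2, 74.8 and 84.7 CPM in WT vehicle mice and 64.1, 71.4 and 79.9 CPM in AS vehicle mice. WT CORT mice had 52.5, 73.4 and 80.0 CPM, while AS CORT mice had 68.5, 74.4 and 82.0 CPM. The 4 groups overlapped throughout. The log2 difference of AS against WT with the treatments averaged was 0.02 ± 0.07 (adjusted p = 0.888, 95% interval -0.12 to 0.15) in the acute cohort and 0.05 ± 0.07 (adjusted p = 0.825, -0.10 to 0.19) in the continuous cohort. Both intervals exclude a difference of the size seen in liver, although these libraries count all cells of the tissue together. In the continuous cohort Ube3a had 83.5 ± 9.86 CPM in WT vehicle mice (n = 4), 80.9 ± 11.3 in AS vehicle mice (n = 4), 78.3 ± 5.73 in WT CORT mice (n = 5) and 86.1 ± 9.93 in AS CORT mice (n = 5). The CORT effects on Ube3a did not pass, with log2 changes averaged over genotypes of -0.02 ± 0.07 in the acute hippocampus (adjusted p = 0.910), -0.001 ± 0.07 in the continuous hippocampus (adjusted p = 0.994) and 0.05 ± 0.06 in liver (adjusted p = 0.586).

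**Figure D3:**
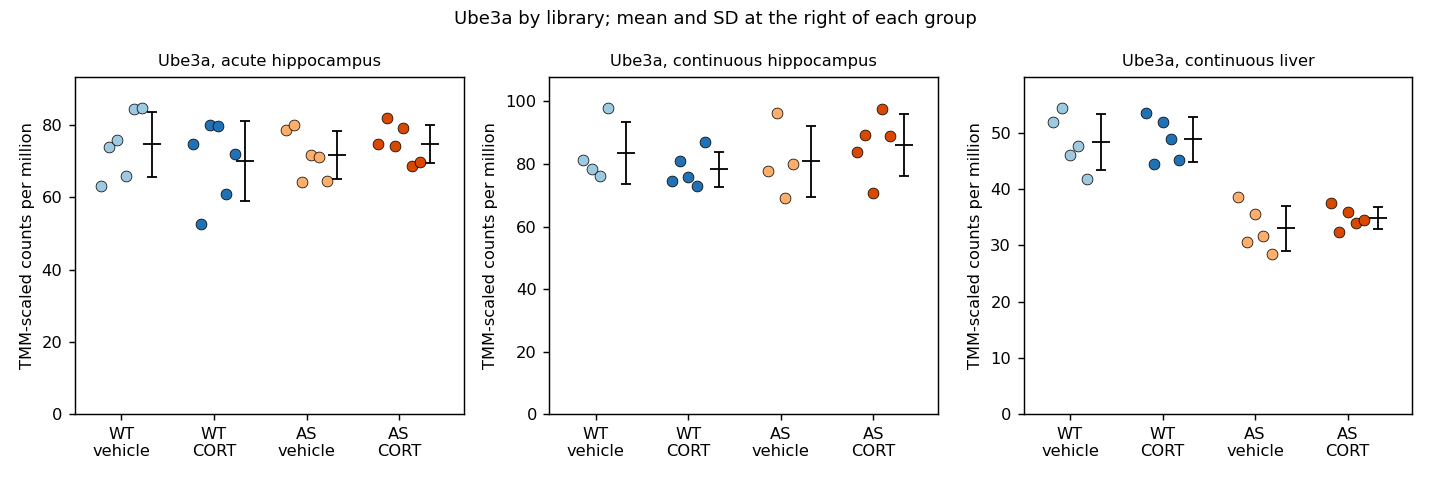
TMM-scaled CPM of Ube3a by library in the acute hippocampus, the continuous hippocampus and the liver, with the mean and SD at the right of each group. The 10 AS livers (28.5 to 38.6 CPM) lie below the 10 WT livers (41.8 to 54.4 CPM), and the hippocampal groups overlap.

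The hepatic and hippocampal genotype effects on Ube3a were compared in 1 fit of the 38 libraries of the continuous cohort, in which CPM are on another scale than above. The genotype effect was lower in liver by -0.57 ± 0.09 on the log2 scale (adjusted p = 0.00359). Ube3a alone passed among the 3 genes that passed the filter in both tissues, beside 0.132% of all genes. The rest of the 8 genes in this fit passed the filter only through the hippocampus, so they are not counted here. Without each library in turn, adjusted p for Ube3a was 7.65e-04 to 0.00847. With the mouse as a block, since both tissues came from the same mice, the difference was -0.52 ± 0.11 with an adjusted p of 0.161, and 6 genes (0.0376%) passed in all.

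In the same fit liver and hippocampus of vehicle mice were compared, where 89.6% of all genes differed in WT and 89.5% in AS mice. Of the 3 genes that passed the filter in both tissues, Ube3a in WT mice was the one value that did not pass, with 65.1 ± 6.66 CPM in liver (n = 5) and 60.3 ± 6.81 in hippocampus (n = 4), a log2 difference of 0.11 ± 0.10 (adjusted p = 0.278). The AS values were 43.9 ± 5.38 CPM in liver and 58.5 ± 8.15 in hippocampus, a log2 difference of -0.41 ± 0.10 (adjusted p = 1.69e-04). With factors within each tissue, Ube3a in WT vehicle mice was at 48.4 CPM in liver and 83.5 in hippocampus. The tissue difference of Ube3a therefore depends on the scaling. Herc2 was lower in liver by -1.41 ± 0.10 in WT and by -1.54 ± 0.10 in AS mice (adjusted p = 6.13e-15 and 5.97e-16), and Snrpn by -5.42 ± 0.11 and -5.43 ± 0.11 (adjusted p = 2.48e-31 and 1.73e-31). Snhg14, Ndn and Atp10a passed the filter only through the hippocampus, which fixed the direction of their difference, so their values are a description without a test. The log2 difference of liver against hippocampus in WT and AS mice was -4.46 ± 0.17 and -4.45 ± 0.17 for Snhg14, -6.11 ± 0.18 and -6.77 ± 0.19 for Ndn, and -3.43 ± 0.28 and -4.83 ± 0.35 for Atp10a, the last from 43 and 12 counts in 5 livers each.

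The other 3 genes were at or near 0 in liver. Gabrg3 and Magel2 had 0 counts in all 20 livers, and Gabra5 had 0 to 3 counts, with 11 of 20 livers at 0. Against a floor of 3 counts per library, which covers counting error only, hippocampal Gabra5 was at least 816-fold higher in WT and at least 790-fold higher in AS vehicle mice. The bounds were at least 66.2-fold and 68.1-fold for Gabrg3, and at least 4.60-fold and 5.37-fold for Magel2. The summed CPM of 5 neuronal markers (Rbfox3, Snap25, Syt1, Map2 and Nefl) was 5054 to 6216 in the hippocampus of the continuous cohort and 4.81 to 28.8 in liver. The 5 hepatocyte markers (Alb, Apoa1, Serpina1c, Cyp2e1 and Ass1) summed to at least 88690 CPM in every liver, so both tissues carried their defining markers.

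Snhg14, the antisense transcript of Ube3a, was higher in the acute hippocampus of AS mice, at 1.24-fold the WT level with the treatments averaged. The lowest, median and highest values were 28.4, 32.8 and 43.2 CPM in WT vehicle mice and 35.2, 42.1 and 48.3 CPM in AS vehicle mice. WT CORT mice had 22.3, 33.01 and 42.7 CPM, while AS CORT mice had 34.2, 41.7 and 47.2 CPM. The medians of both AS groups were above those of both WT groups, with overlap of the ranges. The log2 fold change was 0.31 ± 0.09 (adjusted p = 0.0242), and it passed without each of the 24 mice (adjusted p 0.0129 to 0.0438). With mice 17 and 18 as the only AS vehicle mice it was 0.30 ± 0.11 (adjusted p = 0.0558). Within a treatment it was 0.29 ± 0.13 with vehicle (adjusted p = 0.470) and 0.33 ± 0.13 with CORT (adjusted p = 0.0598). The latter passed without WT CORT mouse 10 or 12, at adjusted p as low as 0.0269.

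The difference in Snhg14 was of like size among libraries of the lower range of low-quality reads, but it did not pass there. Between the 6 WT and the 4 AS vehicle mice of that range the log2 fold change was 0.31 ± 0.16 (adjusted p = 0.460), an alternative chosen after the data were seen. With the range as a covariate the averaged fold change was 0.35 ± 0.16 (adjusted p = 0.520). In the averaged comparison 1 marker each of hippocampal principal cells, thalamus, striatum, choroid plexus and bile duct was lower in AS mice and 1 of blood was higher, and their part in the level of Snhg14 was not tested. In the continuous cohort Snhg14 was at 22.9 ± 3.51 CPM in WT vehicle, 24.5 ± 2.78 in AS vehicle, 22.96 ± 2.62 in WT CORT and 26.0 ± 1.94 in AS CORT mice. The log2 fold change there was 0.14 ± 0.07 (adjusted p = 0.424, 95% interval -0.01 to 0.29). The CORT effects on Snhg14 did not pass, with averaged log2 changes of -0.05 ± 0.09 (adjusted p = 0.788) and 0.05 ± 0.07 (adjusted p = 0.786). In liver it had 2 to 15 counts per library.

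Across hippocampal libraries Ube3a and Snhg14 rose and fell together, and other genes, given below, were more like each of them. On log2 CPM after the group means were removed, Pearson's r was 0.655 over the 24 acute libraries (permutation p = 0.00627, adjusted p = 0.00836) and Spearman's rho 0.672 (permutation p = 0.00304, adjusted p = 0.00608). Over the 18 continuous libraries, r was 0.703 (permutation p = 0.00261, adjusted p = 0.00608) and rho 0.567 (permutation p = 0.0254). The tests were 2-sided and adjusted over 4 tests. Without the 2 libraries farthest from the median of Ube3a, r was 0.593 and 0.533. Within the ranges of low-quality reads, r was 0.750 in the 16 acute libraries of the lower range and -0.032 in the 8 of the upper range. With 8 libraries the latter is uncertain, and the difference between the ranges was not tested.

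The genes whose hippocampal levels were most like those of Ube3a, by the lower of the 2 cohorts' r over the 14418 genes tested in both, were Lmbrd2 (r = 0.908 over 24 acute and 0.905 over 18 continuous libraries), Dnajb14 (0.914 and 0.903) and Zyg11b (0.863 and 0.879). Among those most like Snhg14 were Tmed8 (0.847 and 0.849) and Gabrb1 (0.843 and 0.858). The points share library depth and base composition, and these values are descriptions without a test.

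Among the other paternally expressed genes, Snrpn responded to CORT in the liver. In WT vehicle mice its level was 3.08, 2.97, 2.65, 3.15 and 3.28 CPM, and in WT CORT mice 4.85, 3.24, 5.44, 3.58 and 4.39 CPM, from 54 to 105 counts in every liver. In AS vehicle mice it was 4.04, 4.12, 3.20, 2.90 and 2.86 CPM, and in AS CORT mice 4.19, 3.94, 4.22, 4.42 and 4.49 CPM. The WT groups overlapped by 1 mouse, since the lowest WT CORT value of 3.24 CPM lay just under the highest WT vehicle value of 3.28 CPM. The log2 change was 0.51 ± 0.14 (adjusted p = 0.0154) in WT mice and 0.31 ± 0.14 (adjusted p = 0.106) in AS mice, and the interaction was -0.19 ± 0.20 (adjusted p = 0.799). With the genotypes averaged it was 0.41 ± 0.10 (adjusted p = 0.00291). The WT change had an adjusted p of 0.0550 without WT CORT mouse 12.

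In the hippocampus the CORT effects on Snrpn did not pass, with averaged log2 changes of 0.06 ± 0.05 (adjusted p = 0.481) in the acute and 0.05 ± 0.05 (adjusted p = 0.599) in the continuous cohort. The CORT effect on Snrpn in liver exceeded that in hippocampus by 0.38 ± 0.11 on the log2 scale (adjusted p = 0.00802). Snrpn alone passed among the 3 genes that passed the filter in both tissues, beside 19.9% of all genes. With the mouse as a block this difference was 0.43 (adjusted p = 0.0140), and with all 20 hippocampal libraries it was 0.32 ± 0.12 (adjusted p = 0.0642). The summed level of 5 Kupffer cell markers was lower with CORT, at 110 to 149 CPM in WT vehicle and 55.4 to 82.6 CPM in WT CORT livers, and 4 of the 5 passed. With the genotypes averaged all 5 blood markers and the 1 neuronal marker tested were lower too, and of 5 hepatocyte markers 2 were higher and 1 was lower. The part of these cells in the change of Snrpn was not tested. Between genotypes Snrpn differed by -0.03 ± 0.05 in the acute and 0.14 ± 0.05 in the continuous hippocampus on the log2 scale (adjusted p = 0.668 and 0.218).

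**Figure D4:**
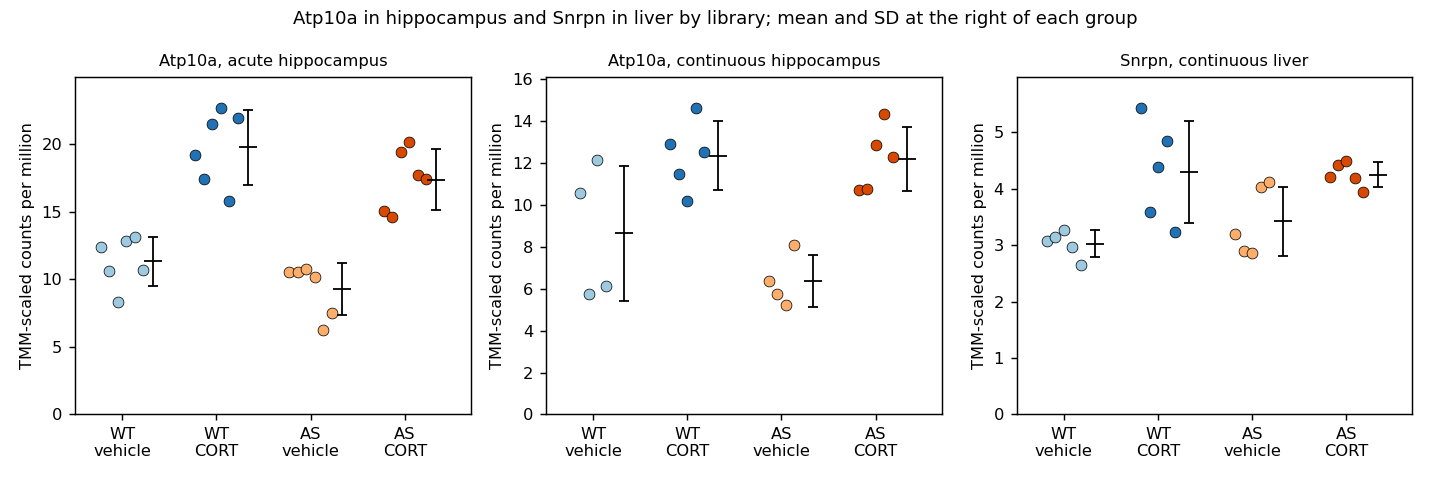
TMM-scaled CPM by library of Atp10a in the acute and the continuous hippocampus and of Snrpn in the liver, with the mean and SD at the right of each group. Every acute CORT mouse lies above every acute vehicle mouse for Atp10a (at least 14.6 against at most 13.1 CPM), and the groups of Snrpn lie between 2.65 and 5.44 CPM.

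Ndn and Magel2 passed no comparison within a tissue. Ndn in the acute hippocampus was at 99.2 ± 10.9 CPM in WT vehicle, 101 ± 17.6 in WT CORT, 96.3 ± 6.97 in AS vehicle and 103 ± 9.49 in AS CORT mice. The averaged log2 difference of AS against WT was -0.01 ± 0.07 in the acute (adjusted p = 0.937) and 0.07 ± 0.05 in the continuous hippocampus (adjusted p = 0.615). In liver Ndn had 1 to 25 counts per library. It passed the filter in the joint fit only through the hippocampus, and its CORT effect in liver minus that in hippocampus, -0.59 ± 0.24 on the log2 scale, is given as a description.

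Magel2 was near the limit of detection. In the acute hippocampus it had 9 to 36 counts in WT vehicle, 3 to 36 in WT CORT, 20 to 33 in AS vehicle and 10 to 33 in AS CORT mice. WT CORT mouse 8 held the 3 counts, and the next lowest WT CORT mouse held 23. With CORT the AS against WT log2 difference was -0.56 ± 0.37 (adjusted p = 0.278), and without mouse 8 it was -0.81 ± 0.31 (adjusted p = 0.0494). At these counts the 95% intervals of the averaged genotype difference ran from -0.65 to 0.43 in the acute and from -0.71 to 0.57 in the continuous hippocampus.

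Atp10a was the gene that CORT altered most clearly. In the acute hippocampus the lowest, median and highest values were 8.31, 11.6 and 13.1 CPM in WT vehicle mice and 15.8, 20.3 and 22.7 CPM in WT CORT mice. In AS mice the vehicle values were 6.25, 10.4 and 10.7 CPM, and the CORT values were 14.6, 17.5 and 20.2 CPM. All 12 CORT mice lay above all 12 vehicle mice. The log2 change was 0.80 ± 0.13 (adjusted p = 3.83e-04) in WT mice, 0.90 ± 0.13 (adjusted p = 4.71e-05) in AS mice and 0.85 ± 0.09 (adjusted p = 2.28e-07) averaged, an increase of 80.6%. The averaged change passed without each of the 24 mice. Summed oligodendrocyte markers ran from 2316 to 4568 CPM in AS vehicle and from 1576 to 3143 in AS CORT mice. In WT mice they ran from 2506 to 5308 with vehicle and from 1831 to 5592 with CORT. The part of these cells in the level of Atp10a was not tested. Among the lower range of low-quality reads, which held WT mice of both treatments, the change in WT mice was 0.80 (adjusted p = 2.69e-04), and the interaction over all mice was 0.10 ± 0.18 (adjusted p = 0.775). All AS CORT mice were in the upper range. There Atp10a had a mean of 6.87 CPM in AS vehicle mice (n = 2) and 17.4 CPM in AS CORT mice (n = 6).

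After 5 days of CORT Atp10a was also higher, with more overlap in WT mice. In WT vehicle mice it was at 10.6, 12.1, 6.11 and 5.73 CPM, and in WT CORT mice at 14.6, 12.5, 12.9, 11.5 and 10.2 CPM. In AS vehicle mice it was at 8.11, 6.37, 5.77 and 5.23 CPM, and in AS CORT mice at 14.3, 12.3, 10.7, 10.8 and 12.8 CPM. The WT groups overlapped, and the AS groups did not. The log2 change was 0.51 ± 0.19 (adjusted p = 0.172) in WT mice, 0.94 ± 0.19 (adjusted p = 0.00771) in AS mice and 0.72 ± 0.13 (adjusted p = 0.00154) averaged. The WT change passed without WT vehicle mouse 4 (adjusted p = 0.0385), and the interaction did not pass (0.42 ± 0.27, adjusted p = 1).

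The continuous change of Atp10a depended on the 2 libraries left out. With all 20 libraries the log2 change was 0.61 ± 0.25 (adjusted p = 0.290) in AS mice and 0.53 ± 0.17 (adjusted p = 0.0689) averaged. Of the cell markers tested in these 18 libraries, 4 of 5 for astrocytes, 3 of 5 for microglia, 3 of 5 for thalamus and the 1 for Kupffer cells were lower with CORT. The 1 hypothalamic marker tested, 1 of 2 for bile duct and 1 of 5 for hippocampal principal cells were higher. Summed hypothalamic markers were at most 3.14 CPM in vehicle mice and reached 67.9 CPM in a WT and 328 CPM in an AS CORT mouse. Thalamic markers summed to 55.2 to 223 CPM with vehicle and 57.8 to 71.2 CPM with CORT. Choroid plexus markers, of which 2 of 4 were lower with CORT in WT mice and 0 of 4 in AS mice, summed to 76.3 to 2866 CPM in WT vehicle and 36.2 to 125 CPM in WT CORT mice. The part of these cells and regions in the level of Atp10a was not tested. In liver Atp10a had 4 to 12 counts in WT vehicle, 1 to 4 in AS vehicle, 1 to 7 in WT CORT and 3 to 9 in AS CORT mice, too few for the test.

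Between genotypes Atp10a was at 11.3 ± 1.83 CPM in WT vehicle and 9.30 ± 1.93 in AS vehicle mice of the acute cohort (n = 6 each), and the averaged log2 difference of -0.24 ± 0.09 did not pass (adjusted p = 0.0775). The AS vehicle mice 17 and 18 had 6.25 and 7.49 CPM and the other 4 had 10.2 to 10.7 CPM. With mice 17 and 18 as the only AS vehicle mice, the log2 difference was -0.71 ± 0.18 (adjusted p = 0.0453) with vehicle and -0.44 ± 0.10 (adjusted p = 0.00349) averaged. Without WT CORT mouse 8 the averaged difference was -0.27 ± 0.09 (adjusted p = 0.0391), and it also passed without WT vehicle mouse 3 (adjusted p = 0.0383). It was -0.23 ± 0.13 in the continuous hippocampus (adjusted p = 0.488).

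Gabra5 was lower in the acute hippocampus of AS mice by 9.9% with the treatments averaged. The lowest, median and highest values were 256, 286 and 298 CPM in WT vehicle mice and 232, 238 and 264 CPM in AS vehicle mice. WT CORT mice had 241, 267 and 280 CPM, while AS CORT mice had 215, 250 and 276 CPM. The separation was clearer with vehicle, where 5 of the 6 AS mice lay below all WT mice. The log2 fold change was -0.15 ± 0.04 (adjusted p = 0.0154), and it passed without each of the 24 mice (adjusted p 0.00833 to 0.0320). It was -0.21 ± 0.06 (adjusted p = 0.138) with vehicle and -0.09 ± 0.06 (adjusted p = 0.244) with CORT.

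Within the lower range of low-quality reads the vehicle difference in Gabra5 was -0.21 (adjusted p = 0.189), and with the range as a covariate the averaged difference was -0.15 ± 0.07 (adjusted p = 0.520). The summed CPM of 5 hippocampal principal cell markers (Prox1, Wfs1, Spink8, Neurod6 and Zbtb20) was 1000 to 1377 in WT vehicle and 785 to 1162 in AS vehicle mice, and 1 of the 5 was lower in AS mice with the treatments averaged. Their part in the level of Gabra5 was not tested. The log2 fold change of Gabra5 in the continuous hippocampus was -0.08 ± 0.05 (adjusted p = 0.536), with 226 ± 19.5 CPM in WT vehicle and 213 ± 27.8 in AS vehicle mice. The CORT effects on Gabra5 did not pass, with averaged log2 changes of -0.02 ± 0.04 (adjusted p = 0.777) and 0.02 ± 0.05 (adjusted p = 0.878).

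**Figure D5:**
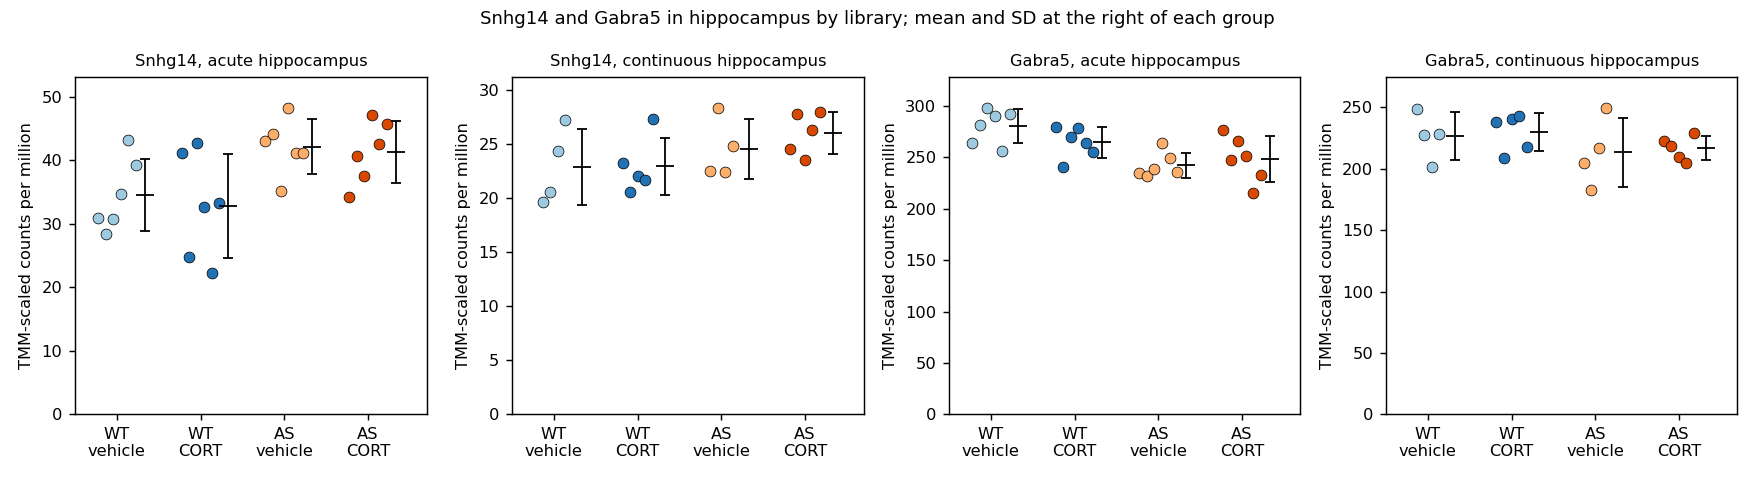
TMM-scaled CPM by library of Snhg14 and Gabra5 in the acute and the continuous hippocampus, with the mean and SD at the right of each group. In the acute panels the AS means are above the WT means for Snhg14 (42.2 and 41.3 against 34.5 and 32.8 CPM) and below them for Gabra5 (242 and 248 against 280.4 and 265 CPM), with overlap between mice.

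Gabrg3 and Herc2, at the other end of the region, passed no comparison within a tissue. Gabrg3 was at 20.4 ± 2.36 CPM in WT vehicle and 20.5 ± 2.24 in AS vehicle mice of the acute cohort, and its averaged log2 difference was -0.03 ± 0.09 (adjusted p = 0.836) in the acute and 0.04 ± 0.08 (adjusted p = 0.878) in the continuous hippocampus. Herc2 was at 273 ± 12.6 CPM in WT vehicle, 285 ± 18.3 in AS vehicle, 272 ± 41.1 in WT CORT and 303 ± 6.94 in AS CORT mice. Its averaged log2 difference was 0.11 ± 0.05 (adjusted p = 0.148) in the acute hippocampus, -0.09 ± 0.06 (adjusted p = 0.542) in the continuous hippocampus and -0.18 ± 0.08 (adjusted p = 0.445) in liver.

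The hippocampal libraries of AS vehicle mouse 9 and WT vehicle mouse 13, left out above, stood apart in these genes as well. Gabra5 was at 35.8 and 33.9 CPM in them and at 184 to 251 CPM in the other 18. Mouse 9 had 37.7 CPM of Snhg14, 5.11 of Magel2 and 25.2 of Gabrg3, all above the highest of the other 18 (28.5, 2.81 and 22.1 CPM), and mouse 13 had 14.6 CPM of Snhg14, below their lowest of 19.8. Mouse 13 was also below the lowest of the others in Snrpn (162 against 223 CPM), Ndn (75.9 against 88.9) and Herc2 (196 against 225). Markers of neurons were low in both libraries, and some markers of other cells or regions were high. Others, such as those of microglia in mouse 9 and of astrocytes in mouse 13, lay within the range of the other 18. The summed CPM of 5 oligodendrocyte markers was 17920 and 14190 in the 2 libraries and at most 6001 in the others. Hippocampal principal cell markers summed to 299.9 and 386 CPM against at least 595.5, and neuronal markers to 4223 and 3143 CPM against at least 5081. Thalamic markers summed to 1808 CPM in mouse 9 against at most 224 CPM, and in mouse 13 striatal markers summed to 3034 CPM against at most 230 CPM and choroid plexus markers to 12980 CPM against at most 2886. Ube3a was at 81.1 and 74.2 CPM, within the range of the others.

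Genes of 3 related lists were read beside the 9. Of 9 further genes at the locus, among them Tubgcp5, Cyfip1, Nipa1 and Mkrn3, 5 passed the filter in each hippocampal set, and 0 of 5 passed any comparison there, in which 0% to 24.9% of all genes passed. With the treatments averaged their median log2 difference of AS against WT was 0.03 in the acute hippocampus, beside -0.003 over all genes. In the liver 4 were tested, and Tubgcp5, for a component of the gamma-tubulin complex, rose with CORT in AS mice (0.35 ± 0.12, adjusted p = 0.0327), where 27.5% of all genes passed.

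Of 15 genes for partners, substrates and relatives of the UBE3A ligase, all were tested in every set. In the acute hippocampus 3 were lower in AS mice with the treatments averaged and 12 did not pass, where 14.2% of all genes passed, with a median log2 difference of -0.07 beside -0.003 over all genes. They were Ube2d1, for a ubiquitin-conjugating enzyme (-0.25 ± 0.05, adjusted p = 0.00121), Cdkn1b, for the cell cycle inhibitor p27 (-0.17 ± 0.04, adjusted p = 0.00922), and Ube3b, for a related ligase (-0.14 ± 0.04, adjusted p = 0.0260). With the range of low-quality reads as a covariate none of the 3 passed, at log2 differences of -0.06 for Ube2d1 (adjusted p = 0.833), -0.18 for Cdkn1b (adjusted p = 0.455) and 0.045 for Ube3b (adjusted p = 0.876). Among CORT mice 4 of the 15 passed (24.9% of all genes). Ube2d1, Ube3b and Tsc2, for an inhibitor of mTOR signalling, were lower, and Usp7, for a deubiquitinase, was higher (0.15 ± 0.05, adjusted p = 0.0216), and none of the 4 passed with the covariate. Among vehicle mice 1 of 15 passed (0.157% of all genes), Cdkn1b, which was lower (-0.30, adjusted p = 0.0281), and with the covariate its log2 difference was -0.31 (adjusted p = 0.0588). With acute CORT 2 of 15 fell in AS mice (17.9% of all genes passed), Ube2d1 (adjusted p = 0.00807) and Arhgef15, for a guanine nucleotide exchange factor (adjusted p = 0.0342). With the genotypes averaged 1 of 15 fell (7.02% of all genes passed), Ube2d1 (adjusted p = 0.00458), and with the covariate none of these passed. In the continuous hippocampus 0 of 15 passed between genotypes or with CORT (0.348% and 9.67% of all genes, averaged). In the liver 0 of 15 passed between genotypes, where 0.326% of all genes did. With CORT and the genotypes averaged, where 37.1% of all genes passed, 3 of the 15 rose in the liver, Ube3c (0.25 ± 0.04, adjusted p = 2.74e-05), Usp7 (0.17 ± 0.03, adjusted p = 2.22e-04), and Ube2l3 (0.15 ± 0.05, adjusted p = 0.0227). Arhgef15 fell (-0.67 ± 0.12, adjusted p = 2.0e-04).

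Of 10 other GABA-A receptor subunit genes, all were tested in the hippocampus. In AS against WT mice with CORT in the acute cohort 3 were higher, among them Gabra4 (0.29 ± 0.08, adjusted p = 0.00722) and Gabra2 (0.23 ± 0.08, adjusted p = 0.0398), and 7 did not pass. With the range as a covariate none of the 3 passed, and Gabra4 was at 0.22 (adjusted p = 0.938) and Gabra2 at -0.069 (adjusted p = 0.974). The median log2 difference was 0.19 beside -0.0002 over all genes, and 24.9% of all genes passed this comparison. Gabra5 had a log2 difference of -0.09 there, which did not pass, and it was not tested against the other subunits. In the continuous hippocampus 0 of 10 passed between genotypes (0.348% of all genes), and with CORT 1 of 10 passed (9.67% of all genes), Gabra2, which fell (-0.17 ± 0.05, adjusted p = 0.0446), which turned to 0.020 with all 20 libraries.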

How the data were processed

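Stranded mRNA libraries of 64 samples were sequenced as paired reads. The authors deposited raw counts per gene, without normalization, from STAR alignments to mm10 and HTSeq-count. Their annotation release is not given in the sources used here. The gene sets of the 2 tables differ, with 3189 gene IDs in the acute table only and 3348 in the continuous table only, so a gene can be counted over different exons in each. Symbols, positions and exon lengths came from GENCODE M 21, which named 52133 IDs of the acute and 55480 of the continuous table. Start windows came from RefSeq. There were 0 columns of no sample.

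Genes were tested with more than 20 normalized counts (DESeq2 size factors) in at least 3 mice of a group, a filter worded after the study's, which need not leave the same genes. Groups were compared in R 4.3.3 by edgeR 4.0.16 (quasi-likelihood F test), with TMM, 1 coefficient per group and Benjamini-Hochberg adjustment over all genes tested. The method was tested on simulated data. Intervals are at 95%, log2 CPM used a prior count of 2, and correlations used 100000 permutations. Alternatives were the Wald test of DESeq2 1.42.0, its size factors, no filter, an adjusted p under 0.01, a covariate for low-quality reads, other choices of libraries and, between tissues, the mouse as a block. Over 18 mice and 11017 genes, the deviations of hippocampus and liver of 1 mouse correlated at -0.0814 to 0.0762, but the tissues came from the same mice, so the block is given beside the tissue results. The whole-gene counts, not exon usage, were used.

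The 9 genes and the lists were chosen with earlier results of these data known. Named are the 9 genes, from each list the genes past the threshold in a comparison (at most 4 by adjusted p), and for Ube3a and Snhg14 the 3 genes most like them, of which some are not reported here.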

Additional observations from a re-analysis of the deposited data

Results flagged for a closer look

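In 3 of 84 groups of a gene's values, the highest or lowest mouse lay apart from the others by Dixon's criterion, and chance gives about 1 in 20. Herc2 in liver was at 65.2 CPM in 1 WT CORT mouse and at 53.6 to 56.1 CPM in the other 4. Magel2 in the continuous hippocampus was at 2.80 CPM in 1 WT CORT mouse and at 0.556 to 1.15 CPM in the other 4. Snrpn in the continuous hippocampus was at 221 CPM in 1 WT vehicle mouse and at 247 to 250.1 CPM in the other 3.

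Genotype and CORT effects were compared between liver and hippocampus in the joint fit, and those of the genes named here differed. For Ube3a it was the genotype effect, lower in liver by -0.57 on the log2 scale, which did not pass with the mouse as a block (-0.52, edgeR adjusted p = 0.161). The CORT effect, liver minus hippocampus, differed by 0.38 for Snrpn, 0.21 for Ube2l3, 0.20 for Ube2d2a, 0.24 for Ube3c and 0.17 for Usp7, of which that of Ube2d2a did not pass with the mouse as a block (edgeR adjusted p = 0.0788).

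The 2 hippocampal libraries left out of the comparisons held some values above those of the other 18 of the continuous cohort, and others, given in the report, below them. AS vehicle mouse 9 had 37.7 CPM of Snhg14, 5.11 CPM of Magel2 and 25.2 CPM of Gabrg3, and WT vehicle mouse 13 had 25.4 CPM of Gabrg3. Oligodendrocyte markers were high in both libraries, thalamic markers in mouse 9, and striatal and choroid plexus markers in mouse 13, as given above, and their part in these levels was not tested.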

How the results depend on the processing

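Differences of the 9 genes kept their side of the threshold in 841 of 853 values under other settings and in 4266 of 4282 with 1 library left out, and no called value of the 9 genes changed sign. Estimates that passed in neither setting changed sign in 52 and 157 values. Of the 25 comparisons, 14 kept their number of the 9 genes called throughout. Among the genes named from the lists, AS against WT in the acute hippocampus reversed with the low-quality range as a covariate for Ube3b, to 0.037 with CORT and 0.045 averaged, and for Gabra2 with CORT, to -0.069. The averaged CORT change of Gabra2 in the continuous hippocampus reversed to 0.020 with all 20 libraries.

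The number of the 9 genes called between AS and WT mice in the acute hippocampus went from 0 to 1 with vehicle when mice 17 and 18 were the only AS vehicle mice (Atp10a), from 0 to 1 with CORT without WT CORT mouse 8 (Magel2; 0 to 1 over the fits without 1 mouse each), and from 2 to 0 with the treatments averaged at an adjusted p under 0.01 or with the low-quality range as a covariate. With mice 17 and 18 alone the last stayed at 2, with Atp10a in place of Snhg14. The number altered by CORT in the continuous hippocampus went from 1 to 0 in AS mice and with the genotypes averaged when all 20 libraries were used, and in WT mice it was 0 to 1 without 1 mouse each. In liver it went from 1 to 0 at an adjusted p under 0.01 for AS against WT with vehicle, with CORT and for CORT in WT mice, and was 0 to 1 in each without 1 mouse each. Between tissues, the genotype effect went from 1 to 0 with the mouse as a replicate block, and the CORT effect from 1 to 2 with DESeq2, to 0 with all 20 hippocampal libraries and was 1 to 2 without 1 mouse each. The gene gained was Ndn each time, which passed the filter only through the hippocampus. Apart from Ube3a, the block ended no call on the 9 genes. Where the cause is not given by fewer samples or a stricter threshold, it was not tested.

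Over all genes, the acute AS against WT comparisons went from 23 (vehicle), 3645 (CORT) and 2073 (averaged) to 22, 0 and 3 with the covariate. With mice 17 and 18 alone they were 207 with vehicle and 3770 averaged, and with vehicle they were 99 by DESeq2 and 3 within the lower range. CORT in AS mice altered 2612 genes, 150 with the covariate and 130 with mice 17 and 18, and averaged 1025, 469 and 448. The acute interaction gave 656 genes, 1143 by DESeq2, 297 without the filter, 1 with the covariate and 0 with mice 17 and 18. The continuous hippocampal AS against WT comparisons gave 2, 6 and 52 genes by edgeR, 18, 44 and 292 by DESeq2, and 0, 0 and 2 with all 20 libraries, and without the filter the first was 5. CORT there gave 436 and 564 genes in WT and AS mice, and 203 and 221 with all 20 libraries. In liver AS against WT gave 2, 34 and 40 genes, and 44, 93 and 100 by DESeq2, and the interaction 0, 9 by DESeq2 and 2 without the filter. The genotype effect differed between tissues in 21 genes, in 53 by DESeq2, 8 with all 20 libraries and 6 with the block. Leaving out 1 mouse moved the acute counts to between 7 (without AS vehicle mouse 18) and 49 (WT CORT mouse 8) for genotype with vehicle, 1532 (AS vehicle mouse 14) and 3497 (AS vehicle mouse 17) for CORT in AS mice, and 0 and 1564 (the same 2 mice) for the interaction. In the continuous hippocampus the averaged genotype count ran from 24 (without AS vehicle mouse 11) to 264 (AS vehicle mouse 14), CORT in WT mice fell to 251 without WT vehicle mouse 17 and CORT in AS mice to 362 without AS vehicle mouse 11. The genotype count with CORT ran from 1 (without WT vehicle mouse 1) to 16 (WT CORT mouse 5) in the continuous hippocampus and from 12 (WT CORT mouse 5) to 63 (AS CORT mouse 10) in liver, where the averaged count fell to 16 without WT CORT mouse 5.

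Low counts limited the comparisons of Magel2 in hippocampus (3 to 60 counts) and of Snhg14, Ndn, Atp10a, Gabra5, Gabrg3 and Magel2 in liver (25 counts at most). With 4 to 6 mice a group, median standard errors over all genes were 0.08 to 0.12 on the log2 scale for a single contrast within a tissue. Some differences of several standard errors, given above, did not pass. A gene that was not called can therefore differ between genotypes by more than these standard errors.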

Other observations

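Of 11 further minus-strand transcripts of the region that were tested, 7 were higher in the acute hippocampus of AS mice, as Snhg14 was, and 4 did not pass (log2 differences over the 11 from -0.05 to 1.02). With the range of low-quality reads as a covariate 0 of the 7 passed (edgeR adjusted p from 0.336 to 0.860, log2 differences from 0.15 to 0.87). Of 2 plus-strand transcripts 1 was higher, Siglech (0.14 ± 0.05, edgeR adjusted p = 0.0427), and with the covariate it was at 0.28 (edgeR adjusted p = 0.211). In the continuous hippocampus 0 of 10 passed (-0.11 to 0.58). The region was chosen after its values were seen. B230209E15Rik (chr7:61529871-61615327) was at 28.2 ± 7.11 CPM in AS and 17.9 ± 3.60 CPM in WT mice (SD, n = 12 each), a log2 difference of 0.66 ± 0.12 (edgeR adjusted p = 0.00130). A230006K03Rik (chr7:61127996-61311721) was at 1.60 ± 0.552 and 0.794 ± 0.254 CPM, a log2 difference of 1.02 ± 0.17 (edgeR adjusted p = 6.57e-04). A230103L15Rik, beyond the 3′ end of Ube3a, differed by 0.72 ± 0.15 (edgeR adjusted p = 0.00270). It lies within the span of Snhg14 on the same strand, so it may not be independent of Snhg14.

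Across the start of Ube3a on the opposite strand, 9330162G02Rik (chr7:59223847-59254788) was at 11.8 ± 1.61 CPM in AS and 9.34 ± 1.28 CPM in WT mice, a log2 difference of 0.34 ± 0.08 (edgeR adjusted p = 0.00616). Gm44560 differed by 0.70 ± 0.18 (edgeR adjusted p = 0.0102), A330076H08Rik by 0.65 ± 0.18 (edgeR adjusted p = 0.0165) and A230057D06Rik by 0.45 ± 0.13 (edgeR adjusted p = 0.0216). The ranges of AS and WT mice overlapped for each of the 7, and 14.2% of all genes passed this comparison. In the continuous hippocampus B230209E15Rik was at 15.03 to 21.4 CPM in AS and 12.5 to 17.9 CPM in WT mice, a log2 difference of 0.30 that did not pass (edgeR adjusted p = 0.0780), and A230103L15Rik had 0.43 (edgeR adjusted p = 0.197). Among acute CORT mice genotype and the range of low-quality reads cannot be told apart.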
